A study of Mus musculus with 21 samples.

Results

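Cytokine genes, 10 in number, were followed one by one through cultured mouse macrophages: Tnf, Il6, Il10, Il12b, Il12a, Il23a, Il27, Ebi3, Il15 and Tnfsf10. They were taken by symbol, and all 10 were found in both deposited tables, among 50645 gene entries in the fatty acid table and 50644 in the Western diet table. Tumor necrosis factor (Tnf) and interleukin 6 (Il6) are secreted by macrophages that sense bacterial products and drive inflammation. Interleukin 10 (Il10) acts back on macrophages and restrains that output. The IL-12 family consists of paired chains: p40 (Il12b) joins p35 (Il12a) to form IL-12 and p19 (Il23a) to form IL-23, while Ebi3 joins p28 (Il27) to form IL-27, and these proteins instruct T cells and natural killer cells. Interleukin 15 (Il15) sustains natural killer and memory T cells, and Tnfsf10 encodes TRAIL, a death ligand of the TNF superfamily known as an interferon-induced gene.

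Bone marrow of C57Bl6/J mice, labelled with a donor age of 24 weeks, was grown into macrophages with supernatant of L929 cells, a fibroblast line that secretes the macrophage growth factor CSF1. RNA was sequenced from 21 libraries in 7 groups of 3. In the fatty acid table all donors had eaten standard chow. Its groups were fatty acid with TAK242 followed by LPS, fatty acid followed by LPS, LPS alone, and untreated. Fatty acid was 10 mM of palmitic and oleic acid (1 part to 3) during the first 4 days of culture. TAK242, a small molecule that blocks the LPS receptor TLR4, was given at 200 nM together with it, and both were washed out. LPS, the lipopolysaccharide of Gram-negative bacteria, was applied on day 7 at 100 ng/ml for 24 h. The groups of the Western diet table were macrophages of donors kept for 24 weeks on Western diet (high in fat, sugar and cholesterol), with LPS (WD + LPS) or without (WD control), and untreated macrophages of chow-fed donors, numbered 4 to 6. No group had fatty acid without LPS, or TAK242 without fatty acid, so an effect on the LPS response cannot be told apart from an effect that is present without LPS. The labels do not say whether a replicate number is an animal or a culture, and the p-values measure only the spread between these libraries, which may be technical.

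The deposited values carry no stated unit and no read depth, and they summed to between 321532 and 386023 per library. All 8 macrophage markers examined, among them Adgre1, Csf1r and Lyz2, had a mean of at least 1 in every group, with sums of 5931 to 15737 per library. The summed markers of dendritic cells stayed between 0.0830 and 4.02, of B cells between 0.0511 and 3.12, of mast cells and basophils between 0 and 0.347, and of T and NK cells between 0 and 0.153. Those of neutrophils were higher, between 25.1 and 383.2, and those of stromal cells ran from 0.120 to 34.0. Several Western diet libraries went against their labels for Ccl5, a chemokine gene strongly induced by LPS. Its values were 0.463, 10.5 and 6905 in the libraries labelled WD + LPS 1, 2 and 3, at 7846, 13.7 and 10973 in those labelled WD control 1, 2 and 3, and at 2.06, 2.38 and 1.57 in the chow controls. In the fatty acid table it ranged from 3102 to 7141 in LPS-treated libraries and from 0.419 to 0.645 in untreated ones. The libraries labelled WD control 1 and 3 therefore stood at the level of LPS-treated cells and those labelled WD + LPS 1 and 2 far below it, and the comparisons of the Western diet table are given with and without these 4 libraries.

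Promoter sequence is shown for Il6, Tnf and Il12b, whose transcripts were high with LPS alone and lower with fatty acid before LPS. Each run is the 250 bases before the RefSeq start (GRCm38.p6), 5′ to 3′ on the gene's strand, with capitals marking motif matches. The Il6 window is chr5:30012864-30013113 (+), the Tnf window chr17:35202008-35202257 (-) and the Il12b window chr11:44399813-44400062 (+).
Il6: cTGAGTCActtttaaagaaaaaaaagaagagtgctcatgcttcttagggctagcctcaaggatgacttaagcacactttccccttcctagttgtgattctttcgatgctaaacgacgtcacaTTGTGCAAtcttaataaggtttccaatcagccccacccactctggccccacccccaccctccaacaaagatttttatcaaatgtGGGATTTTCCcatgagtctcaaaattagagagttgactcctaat
Tnf: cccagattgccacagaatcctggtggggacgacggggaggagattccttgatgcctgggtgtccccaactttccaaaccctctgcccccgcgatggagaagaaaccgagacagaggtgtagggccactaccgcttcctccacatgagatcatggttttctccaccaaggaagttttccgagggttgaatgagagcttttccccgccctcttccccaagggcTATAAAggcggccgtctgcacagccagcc
Il12b: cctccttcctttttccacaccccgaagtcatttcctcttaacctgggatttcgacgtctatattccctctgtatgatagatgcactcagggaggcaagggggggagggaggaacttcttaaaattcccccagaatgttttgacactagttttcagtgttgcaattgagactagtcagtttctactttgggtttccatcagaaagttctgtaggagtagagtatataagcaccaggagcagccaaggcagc
The motifs searched on both strands were a kB-type motif (GGGA, 2 free bases, TTCC), an AP-1-type TGANTCA, a CEBP-type TTGNNCAA and an IRF-type motif (GAAA, 2 free bases, GAAA), and TATAAA was searched on the gene's strand. The Il6 window held the kB-type match GGGATTTTCC at 44 to 35 bases before the start, the AP-1-type match TGAGTCA at 249 to 243 and the CEBP-type match TTGTGCAA at 128 to 121. The Tnf window held TATAAA at 29 to 24 bases before the start, and the Il12b window held none of these letters. Of 32851 such windows, 1.21% held the kB-type motif, 6.75% the AP-1-type, 5.65% the CEBP-type, 2.98% the IRF-type and 7.59% TATAAA. RefSeq windows were matched for 6 of the 10 genes, and those of Il12a, Ebi3 and Tnfsf10 held no match of these motifs. A match describes letters in a window and says nothing on binding. Il10, Il23a, Il27 and Il15 were not matched.

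The first comparison asks which of these cytokines LPS raised in macrophages of chow-fed mice. LPS raised Tnf, Il6, Il10, Il12b, Il12a, Il27 and Ebi3, and left Il15 without a call. Of the 10 genes, 8 were tested (those with 3 or more libraries of the table at a deposited value of 1 or above), 7 were higher and 0 lower at a limma adjusted p under 0.05. Over all 10476 genes tested 61.7% were called, 13.8% higher and 47.9% lower, and the groups did not overlap in 65.1% of them. The median log2 change was 2.39 over the 8 genes and -0.31 over all genes. Median-ratio scaling between libraries moved the median of all genes to 0.01 and the counts over all genes to 2847 higher and 2822 lower (1444 and 5019 on the deposited scale), and 7 of the 8 cytokine genes were called after it too. Il6, Il12b and Il12a reached a value of 1 only in LPS-treated libraries and entered the test through them, so the count is a description of the genes that passed.

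Tnf (chr17:35199381-35202007, - strand) had deposited values of 101.1, 39.0 and 27.3 with LPS alone, against 3.40, 3.42 and 2.37 in untreated cells. Every LPS library exceeded every untreated one, and LPS replicate 1 was far above its fellows. The mean was 18.2-fold higher, 55.8 ± 39.7 with LPS against 3.06 ± 0.603 without (SD, n = 3 each), and the log2 change on the log2(value + 1) scale was 3.60 (SE 0.39, adjusted p = 1.32e-05). In these bulk samples fewer cells of a type and less RNA per cell cannot be told apart.

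Il6 (chr5:30013114-30019981, + strand) stood at 40.3, 10.99 and 4.11 with LPS alone, and was listed at 0, 0.0180 and 0 in untreated cells. The groups did not overlap, and replicate 1 was again the highest LPS library. The log2 change was 3.76 (SE 0.60, adjusted p = 0.000262), and no fold is given because 2 untreated libraries were at 0.

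Il10 (chr1:131019845-131024974, + strand) was at 12.9, 10.2 and 8.01 with LPS alone, against 0.667, 0.445 and 0.459 in untreated cells. Its LPS libraries lay closer together than those of Tnf or Il6, and the mean was 19.8-fold higher (10.3 ± 2.43 against 0.524 ± 0.124). The log2 change was 2.88 (SE 0.16, adjusted p = 8.63e-08).

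The chains of IL-12 rose together. Il12b, encoding p40 (chr11:44400063-44414033, + strand), was at 3.52, 3.36 and 1.801 with LPS alone, against 0, 0.0225 and 0.0181 in untreated cells. Il12a, encoding p35 (chr3:68690644-68698547, + strand), was at 29.6, 5.39 and 1.45 with LPS alone and listed at 0 in all 3 untreated libraries. Both genes were separated from untreated cells in every library, and Il12a spread over a wide range with replicate 1 on top. The log2 changes were 1.91 for Il12b (SE 0.17, adjusted p = 2.65e-06) and 2.97 for Il12a (SE 0.67, adjusted p = 0.00264). Il23a, encoding the p19 chain that p40 needs to form IL-23 (chr10:128296139-128298752, - strand), was near 0 throughout. It was listed at 0.0948, 0 and 0.0127 with LPS alone, against 0, 0.0574 and 0 in untreated cells. Outside the fit, an exact permutation test of the F statistic over the 15400 divisions of the 12 libraries gave p = 0.5364 for Il23a, unadjusted.

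The chains of IL-27 were already present in untreated cells and rose less. Il27, encoding p28 (chr7:126589010-126594941, - strand), was at 7.00, 6.38 and 6.80 with LPS alone, against 1.94, 2.18 and 4.29 in untreated cells. Ebi3 (chr17:55952623-55957021, + strand) was at 34.7, 47.9 and 48.6 with LPS alone, against 16.8, 20.6 and 20.1 in untreated cells. Neither gene's groups overlapped, and the means were 2.40-fold higher for Il27 and 2.28-fold higher for Ebi3. The log2 changes were 1.07 (SE 0.18, adjusted p = 0.000394) and 1.14 (SE 0.16, adjusted p = 8.74e-05). Both loci overlap a gene on the other strand, and no source used here states a strand setting, so their values are uncertain. The partner of Il27, Apobr, averaged 6.02 ± 1.90 with LPS alone and 6.003 ± 0.194 in untreated cells, and that of Ebi3 is the antisense gene Gm16712.

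Il15 (chr8:82331632-82403222, - strand) was at 1.84, 6.02 and 9.70 with LPS alone, against 6.85, 6.51 and 5.91 in untreated cells. The LPS libraries lay below, near and above the untreated ones, and the log2 change of -0.31 (SE 0.36, adjusted p = 0.479) did not pass. Tnfsf10 (chr3:27317028-27342427, + strand) was at 0.0938, 0.340 and 0.609 with LPS alone, against 0.0160, 0.0153 and 0.0232 in untreated cells. Its groups did not overlap, and replicate 1 was the lowest LPS library here, as it was for Il15 and Ebi3, while it was the highest for Tnf, Il6, Il10, Il12b, Il12a and Il27. Tnfsf10 reached a value of 1 in only 2 libraries and was outside the fit. With no filter on low values (25319 genes) its log2 change was 0.39 (adjusted p = 0.0389). Over the 4 groups the exact permutation test gave p = 6.494e-05, unadjusted, the smallest it allows.

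LPS replicate 1 carried part of the size of these rises. Without it the log2 change of Il12a was 1.98, against 2.97 with it, that of Il6 was 2.96, that of Tnf was 3.06, and each remained past the threshold. Markers of other cells moved with the same comparison. The summed neutrophil markers (4 of 7 tested, 2 higher) ran from 115.7 to 383.2 with LPS alone and from 32.5 to 47.9 in untreated cells, with Ly6g at 0 in every LPS library. The summed stromal markers (4 of 7 tested, all 4 higher) ran from 14.3 to 34.0 with LPS alone and from 4.29 to 9.06 in untreated cells, with Lum at 0 in both. The summed B cell markers (1 of 4 tested, Cd79b, lower by -1.39) ran from 0.0511 to 0.357 with LPS alone and from 1.99 to 2.54 in untreated cells, and of the 8 macrophage markers 4 were higher and 2 lower with LPS alone. Their part in the cytokine changes was not tested.

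**Figure D1:**
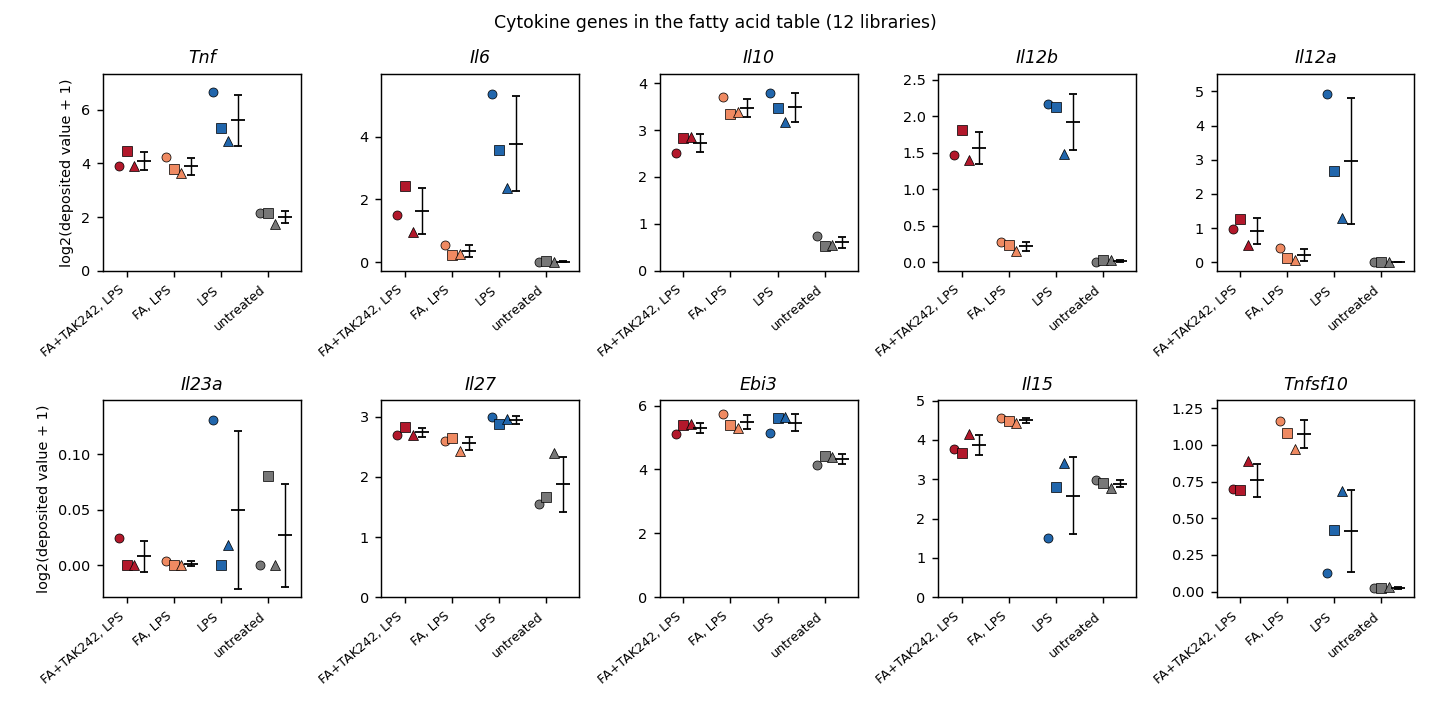
Values of the 10 cytokine genes in the 12 libraries of the fatty acid table, on a log2(deposited value + 1) axis whose range differs between panels. Circles, squares and triangles are replicates 1, 2 and 3, and the black bar beside each group is its mean ± SD (n = 3). Il6 and Il12b are a little above the untreated level with fatty acid before LPS, without overlap, while Il15 and Tnfsf10 are highest there.

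The next comparison asks how fatty acid during early culture altered the cytokine genes after LPS. With fatty acid before LPS, Tnf, Il6, Il12b and Il12a were lower than with LPS alone, Il15 was higher, and Il10, Ebi3 and Il27 were not called. Of the 8 genes tested, 1 was higher and 4 were lower, beside 37.2% of all 10476 genes (21.8% higher and 15.3% lower). The groups did not overlap in 51.3% of all genes. The median log2 change was -1.05 over the 8 genes and 0.06 over all genes. Of the 4 lower genes, Il6, Il12b and Il12a stayed below 1 in every fatty acid library and passed the filter through the other LPS-treated libraries, so this count too is a description of the genes that passed.

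Tnf was at 17.9, 12.9 and 11.5 with fatty acid before LPS, 3.95-fold lower on average than with LPS alone (14.1 ± 3.36 against 55.8 ± 39.7). The groups did not overlap, and the log2 change was -1.71 (SE 0.39, adjusted p = 0.00665). Tnf remained higher than in untreated cells, 4.61-fold on average (log2 change 1.88, adjusted p = 0.00148).

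Il6 was at 0.471, 0.170 and 0.191 with fatty acid before LPS, a mean of 0.277 ± 0.168 against 18.4 ± 19.2 with LPS alone, or 66.6-fold lower. The highest fatty acid library lay below the lowest LPS library, and the log2 change was -3.42 (SE 0.60, adjusted p = 0.00215). Against untreated cells the change of 0.34 did not pass (adjusted p = 0.654), and it passed in 1 of 11 alternatives (adjusted p from 0.0217 to 0.799). The fit used 1 spread over all 12 libraries, and Il6 spread most widely with LPS alone, which is outside this comparison. The ranges did not overlap, at values below 1. The share of all genes without overlap is not given for this comparison.

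Il12b was at 0.211, 0.179 and 0.114 with fatty acid before LPS, 17.2-fold lower on average than with LPS alone (0.168 ± 0.0497 against 2.89 ± 0.949). All 3 fatty acid libraries were far under the LPS libraries, and the log2 change was -1.71 (SE 0.17, adjusted p = 0.000207). Il12a was at 0.323, 0.0996 and 0.0497, against the 29.6, 5.39 and 1.45 with LPS alone, a log2 change of -2.76 (SE 0.67, adjusted p = 0.00915). The groups of Il12a did not overlap either, but its call was lost when only the 6 libraries compared entered the fit (adjusted p = 0.0556, with 0.000672 to 0.0556 over 11 alternatives). Against untreated cells neither chain passed, at 0.20 for Il12b (adjusted p = 0.318) and 0.20 for Il12a (adjusted p = 0.812). The ranges of both chains lay above those of untreated cells without overlap, at values below 1. The share of all genes without overlap is not given for this comparison. Il12b passed in 2 of 11 alternatives (adjusted p from 0.00272 to 0.469) and Il12a in 0 of 11.

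Il10 was at 11.98, 9.13 and 9.38 with fatty acid before LPS, within the 8.01 to 12.9 of LPS alone. The log2 change was -0.01 (SE 0.16, adjusted p = 0.965), and the means were 10.2 ± 1.58 and 10.3 ± 2.43. Ebi3 was at 52.0, 41.5 and 38.4 and overlapped LPS alone in the same way, with a change of 0.01 (SE 0.16, adjusted p = 0.959). Il27 was at 5.05, 5.27 and 4.38, below all 3 libraries with LPS alone, and its change of -0.39 (SE 0.18) gave an adjusted p of 0.114. It passed under 1 of 12 alternatives, with only the libraries compared in the fit (adjusted p = 0.0319, range 0.0319 to 0.261). Against untreated cells all of these remained higher, by 2.87 for Il10, 1.15 for Ebi3 and 0.68 for Il27 (adjusted p = 8.62e-08, 8.05e-05 and 0.00728).

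Il15 moved the other way. It was at 22.7, 21.5 and 20.4 with fatty acid before LPS, 3.68-fold higher on average than with LPS alone (21.6 ± 1.15 against 5.85 ± 3.93) and 3.36-fold higher than in untreated cells. The fatty acid libraries lay close together and above all others, with a log2 change of 1.92 against LPS alone (SE 0.36, adjusted p = 0.00302) and 1.60 against untreated cells (adjusted p = 0.00279). Tnfsf10 had the same order, at 1.24, 1.12 and 0.962 with fatty acid before LPS, 3.19-fold higher on average than with LPS alone. With no filter its log2 change against LPS alone was 0.66 (adjusted p = 0.0089).

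Leaving out LPS replicate 1 moved several of these changes without ending a call. Without it Il12a changed by -1.78, Il6 by -2.62, Tnf by -1.18 and Il15 by 1.38 (adjusted p = 0.0045, 0.00195, 0.00608 and 0.000974). The summed stromal markers were 5.11 to 7.09 with fatty acid before LPS and 14.3 to 34.0 with LPS alone (3 of 4 tested lower), and the neutrophil markers 78.0 to 87.9 and 115.7 to 383.2 (2 of 4 lower). The B cell markers summed to 2.03 to 2.59 with fatty acid before LPS and to 0.0511 to 0.357 with LPS alone (Cd79b higher by 1.39), and of the 8 macrophage markers 6 were higher and 2 lower with fatty acid. Their part was not tested.

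**Figure D2:**
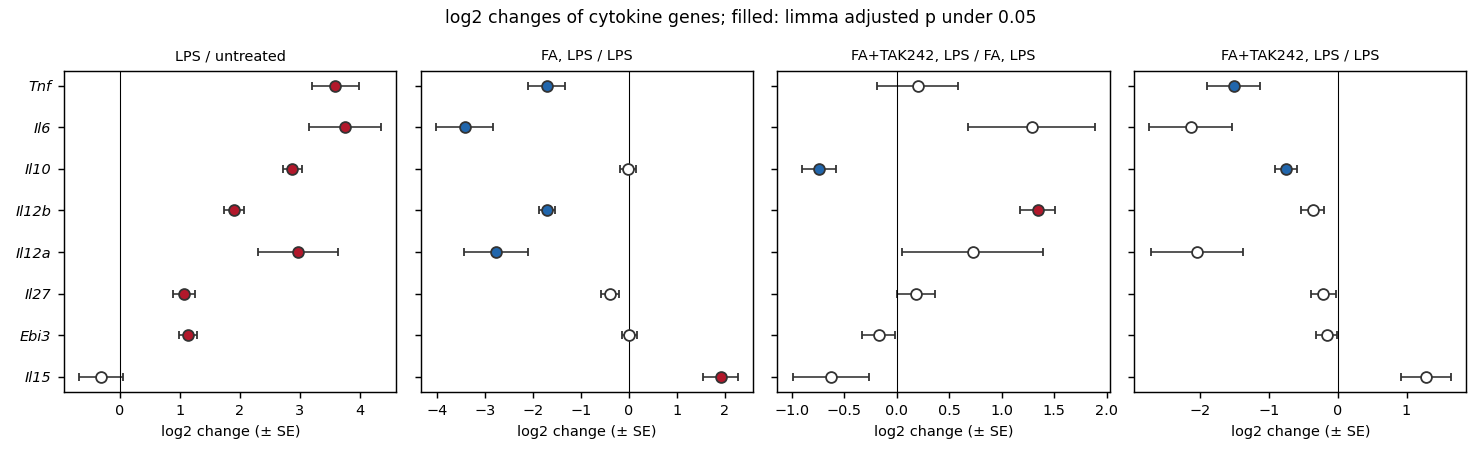
Log2 changes (log2(value + 1) scale) of the 8 tested cytokine genes in 4 comparisons that share libraries, with SE bars. Red and blue points passed an adjusted p of 0.05 (red higher, blue lower), and open points did not. Il6, Il12a, Tnf and Il12b lie on the left in the comparison of fatty acid before LPS with LPS alone, and Il15 on the right.

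TAK242 was added during the fatty acid phase in the remaining group, and was compared with fatty acid before LPS. Il12b was higher with TAK242 and Il10 lower. These 2 of 8 genes stand beside 4.69% of all genes tested (3.01% higher and 1.68% lower). The groups did not overlap in 36.9% of all genes. The median log2 change was 0.19 over the 8 genes and 0.00 over all genes.

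Il12b was at 1.79, 2.53 and 1.64 with fatty acid and TAK242, against 0.211, 0.179 and 0.114 with fatty acid, 11.8-fold higher on average. Each TAK242 library was well above each fatty acid library, and the log2 change was 1.34 (SE 0.17, adjusted p = 0.00338). Il12b passed the filter through libraries with TAK242 and with LPS alone. Its call held under all 11 alternatives that gave a value (adjusted p from 0.00105 to 0.0239). The TAK242 libraries overlapped those with LPS alone, from which they differed by -0.36 (adjusted p = 0.176).

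Il10 was at 4.71, 6.10 and 6.22 with fatty acid and TAK242, against 11.98, 9.13 and 9.38 with fatty acid, 1.79-fold lower on average. The groups did not overlap, and the log2 change was -0.74 (SE 0.16, adjusted p = 0.0339). It was lost when any 1 of the 6 libraries was left out, and without the filter (adjusted p from 0.0541 to 0.106), and the change then ran from -0.81 to -0.63.

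Il6 and Il12a had no call in this comparison although their ranges did not overlap. Il6 was at 1.82, 4.36 and 0.951 with fatty acid and TAK242, above every fatty acid library (log2 change 1.28, SE 0.60, adjusted p = 0.231). Il12a was at 0.984, 1.41 and 0.429, also above every fatty acid library (0.72, SE 0.67, adjusted p = 0.552). These SEs come from the spread over all 12 libraries, including LPS alone, where both genes spread widely. Over 11 alternatives the adjusted p ran from 0.0675 to 0.521 for Il6 and from 0.0685 to 0.764 for Il12a. Il15 was at 12.7, 11.7 and 16.8 and Tnfsf10 at 0.625, 0.614 and 0.851, each below every fatty acid library. Il15 changed by -0.63 (SE 0.36, adjusted p = 0.329) and passed only with just the libraries compared in the fit (adjusted p = 0.0390, with 0.0390 to 0.589 over 12 alternatives), and Tnfsf10 changed by -0.31 with no filter (adjusted p = 0.293). Tnf, at 13.8, 21.3 and 14.1, overlapped the fatty acid group (0.20, SE 0.39, adjusted p = 0.799), as did Ebi3, at 33.7, 40.8 and 41.7. Il27, at 5.50, 6.12 and 5.46, lay above the fatty acid libraries by 0.18 (adjusted p = 0.579).

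Set against LPS alone, fatty acid with TAK242 gave lower Il10 and Tnf, 2 of 8 genes beside 5.89% of all genes (4.05% higher and 1.84% lower). Il10 changed by -0.75 (SE 0.16, adjusted p = 0.0348) and Tnf by -1.51 (SE 0.39, adjusted p = 0.0484). Both calls were lost in 7 of 12 alternatives, and the count of called genes was 6 without LPS replicate 3 and 0 without any other single library. Il6 (-2.14, adjusted p = 0.0582), Il12a (-2.04, adjusted p = 0.0821) and Il15 (1.29, adjusted p = 0.0595) were not called. They passed in 2 of 11, 1 of 11 and 1 of 12 alternatives. Against untreated cells 7 of the 8 genes were higher with fatty acid and TAK242, all except Il12a, beside 58.1% of all genes (14.1% higher). With fatty acid before LPS 5 were higher, namely Il10, Tnf, Ebi3, Il27 and Il15, beside 60.1% (15.2% higher). These 2 comparisons share the untreated libraries. The TAK242 calls of Il6 (adjusted p = 0.0383) and Il15 (adjusted p = 0.0390) against untreated cells were lost in 6 of 11 and 8 of 12 alternatives. The stromal markers summed to 13.9 to 16.7 with fatty acid and TAK242, above the fatty acid group (2 of 4 tested higher), and the neutrophil markers to 63.0 to 85.8. The B cell markers summed to 0.579 to 0.933 with fatty acid and TAK242, below the fatty acid group (Cd79b lower by -0.86). Their part was not tested.

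By mean level in the fatty acid table, Il6, Il12b, Il12a and Il27 had the order LPS alone, fatty acid with TAK242, fatty acid, untreated. Neighbouring ranges overlapped only between LPS alone and fatty acid with TAK242, for Il6 and Il12b. Tnf had the same order, with the fatty acid groups overlapping. Il10 had LPS alone and fatty acid overlapping on top, then fatty acid with TAK242, then untreated. Il15 ran from fatty acid to fatty acid with TAK242 and then to untreated and LPS alone, which overlapped, and Tnfsf10 from fatty acid to fatty acid with TAK242, LPS alone and untreated with no overlap.

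The receptors of these cytokines were examined as a list of 15 genes, 11 of them tested. With LPS alone 5 were higher and 4 lower than in untreated cells (7 and 3 after median-ratio scaling). Of all genes 13.8% were higher and 47.9% lower before that scaling. The median of the list was 0.04, against -0.31 for all genes. Tnfrsf1b, which encodes the TNF receptor TNFR2, averaged 178.2 with LPS alone and 32.0 without (log2 change 2.43, adjusted p = 1.33e-07). Il23r, a chain of the IL-23 receptor, was at 3.27, 5.02 and 4.92 with LPS alone and listed at 0 in all 3 untreated libraries (2.42, adjusted p = 3.62e-08). Il12rb2, the signalling chain of the IL-12 receptor, averaged 0.111 with LPS alone and 3.84 without (-2.12, adjusted p = 1.18e-08). Il12rb1, Il15ra and Il2rg were also higher, and Il6st, Il10rb and Il6ra lower, of which Il6ra was not called after the scaling. Il27ra, Il2rb, Tnfrsf10b and Tnfrsf11b stayed under 1 in every library of the fatty acid table.

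With fatty acid before LPS 6 of the 11 receptor genes were higher than with LPS alone and 1 was lower. The shares of all genes were 21.8% and 15.3%, and the median was 0.55 for the list and 0.06 for all genes. Il15ra, which presents IL-15 on the cell surface, was at 8.66, 10.9 and 10.6 with fatty acid and at 3.15, 4.03 and 5.07 with LPS alone (1.13, SE 0.14, adjusted p = 0.000535). The gene thus moved in the same direction as Il15. Il6st, encoding the gp130 chain that signals for IL-6 and IL-27, was at 3.35, 3.22 and 3.26 with fatty acid, against 1.69, 1.43 and 1.63 with LPS alone (0.73, adjusted p = 0.000899). Il12rb1 averaged 3.10 with fatty acid and 0.880 with LPS alone (1.13, adjusted p = 0.000995). Both IL-10 receptor chains were higher, Il10ra by 0.67 and Il10rb by 0.55 (adjusted p = 0.00173 and 0.00191), as was Il6ra by 0.55 (adjusted p = 0.00657), while Tnfrsf1b was lower. With TAK242, Il6st was the only receptor gene called against fatty acid, lower by -0.42 (adjusted p = 0.0491), a call lost in 8 of 11 alternatives. Among all genes 4.69% were called in that comparison.

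**Figure D3:**
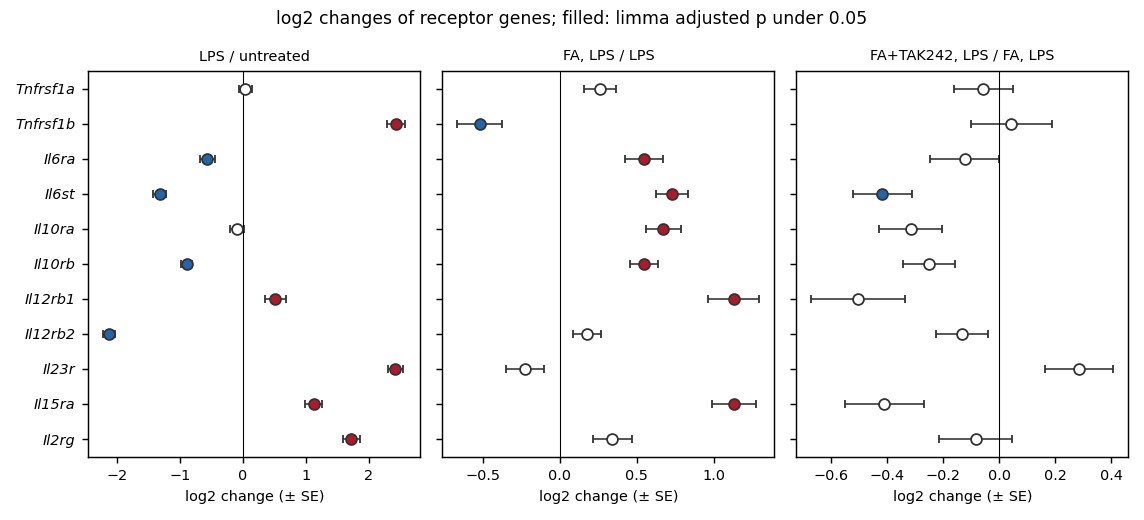
Log2 changes (log2(value + 1) scale, SE bars) of the 11 receptor genes tested, in 3 comparisons that share libraries. Red and blue points passed an adjusted p of 0.05 (red higher, blue lower), and open points did not. Of the 11, 6 are called higher and 1 lower with fatty acid before LPS against LPS alone, beside 21.8% and 15.3% of all genes.

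Genes that release TNF or control the decay of cytokine transcripts formed a list of 13, with 10 tested. With LPS alone 6 were higher and 2 lower than in untreated cells (7 and 1 after scaling), and the median was 0.42. Before scaling 13.8% of all genes were higher and 47.9% lower. Zc3h12a, encoding the endonuclease Regnase-1 that cleaves cytokine transcripts including Il6, averaged 13.9 with LPS alone and 2.37 without (2.11, adjusted p = 1.6e-06). With fatty acid before LPS 2 were higher and 4 lower than with LPS alone (median -0.40), beside 21.8% and 15.3% of all genes. Zfp36 encodes tristetraprolin, which binds AU-rich elements and speeds the decay of Tnf transcripts. It was at 6.38, 5.35 and 5.78 with fatty acid, against 2.04, 1.66 and 2.20 with LPS alone, and no values overlapped (1.21, SE 0.12, adjusted p = 0.000207). With TAK242 it was at 2.87, 2.70 and 3.69, lower than with fatty acid (-0.75, SE 0.12, adjusted p = 0.0104) in all alternatives but 1 of 12, which left out fatty acid with TAK242 replicate 2 (adjusted p = 0.0559; range 0.00623 to 0.0559). Rhbdf2, encoding iRhom2 that carries the TNF-releasing protease to the cell surface, averaged 11.4 with fatty acid and 17.4 with LPS alone (-0.58, adjusted p = 0.00547). Tnip1, an inhibitor of NF-kB signalling, averaged 43.1 and 74.6 in the same order (-0.77, adjusted p = 0.0047).

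Of 7 listed genes known to be induced by IL-10 in macrophages, 6 were tested. With LPS alone 5 were higher and 1 lower than in untreated cells (median 1.08), beside 13.8% and 47.9% of all genes. The IL-1 receptor antagonist Il1rn was at 58.7 against 3.11 on average (3.83, adjusted p = 3.72e-08). With fatty acid before LPS, where Il10 itself was not called, 3 were higher and 2 lower than with LPS alone (median 0.39). Of all genes 21.8% were higher and 15.3% lower. Il4ra, a chain of the IL-4 receptor, was at 60.0, 58.8 and 65.3 with fatty acid, against 14.2, 18.7 and 26.6 with LPS alone (1.63, adjusted p = 0.000418). Socs3, an inhibitor of gp130 signalling, was at 0.434, 0.201 and 0.0846 with fatty acid, against 1.66, 1.87 and 1.48 with LPS alone (-1.11, adjusted p = 0.000315). The list therefore split, with Il1rn, Il4ra and Etv3 higher and Socs3 and Bcl3 lower. With TAK242 against fatty acid 1 of 6 was called, beside 4.69% of all genes. It was the transcriptional repressor Etv3 (-0.35, adjusted p = 0.0315), and the call was lost in 6 of 11 alternatives. After scaling 3 of 6 were called, all lower (Etv3, Il1rn and Il4ra).

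Signalling genes numbered 17, with 16 tested. With LPS alone 5 were higher and 3 lower than in untreated cells (median 0.04, and 9 and 2 after scaling). Of all genes 13.8% were higher and 47.9% lower before scaling. With fatty acid before LPS 4 were higher than with LPS alone (median 0.14), beside 21.8% higher and 15.3% lower of all genes. The 4 of 16 higher genes are near the share of all genes. After scaling 4 were higher and 3 lower. Of 15 other TNF superfamily ligands 3 were tested. The APRIL gene Tnfsf13 averaged 6.23 with LPS alone and 39.1 without (-2.55, adjusted p = 2.28e-06), the TWEAK gene Tnfsf12 averaged 6.53 and 30.8 (-2.09, adjusted p = 4.01e-08), and the 4-1BB ligand gene Tnfsf9 was higher with LPS (0.55, adjusted p = 0.00683). None of the other 7 ligands of gp130 receptors or the other 9 ligands of the IL-10 and IL-2 families passed the filter.

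The genes closest in pattern were found over the 12 libraries of the fatty acid table, by the root mean square difference between standardized profiles, among 6321 named genes. For Tnf they were Pstpip2 (0.15), the death receptor gene Fas (0.15), the protease inhibitor gene Slpi (0.17) and the p38 target kinase gene Mapkapk2 (0.18), where the median over all genes was 1.62. Closest to Il6 were Clmp (0.10), the neutrophil chemokine genes Cxcl2 (0.12) and Cxcl3 (0.14), and Acpp (0.14), against a median of 1.54. Il10 was matched most closely by Arhgdib (0.19), Grina (0.21), Tarm1 (0.21) and the costimulatory receptor gene Cd40 (0.21), and Il12b by the chemokine gene Ccl9 (0.19), Serf1 (0.21), Stap1 (0.22) and H13 (0.22). For Il15 the closest were Arhgap25 (0.14), the complement receptor gene C3ar1 (0.15), Ly86 (0.16) and Xdh (0.18). These likenesses are a description over libraries that share groups.

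The Western diet table compares the same cytokines by donor diet and LPS label. Here 7 of the 10 genes were tested, since Il12a, Il23a and Tnfsf10 missed the filter. By label, none of the 7 was called in any of the 3 comparisons. All genes called were 0.958% for WD + LPS against WD control, 1.39% for WD + LPS against chow control and 0.232% for WD control against chow control. At an unadjusted p under 0.05 the counts were 4 of the 7 genes beside 17.2% of all genes for WD + LPS against WD control, 0 beside 12.6% for WD + LPS against chow control and 6 beside 27.3% for WD control against chow control.

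Tnf was at 2.41, 2.41 and 14.3 in the libraries labelled WD + LPS 1, 2 and 3, at 64.6, 17.8 and 53.1 in those labelled WD control 1, 2 and 3, and at 8.57, 12.4 and 7.87 in chow controls. The libraries labelled WD + LPS were all below those labelled WD control (log2 change -2.85, SE 0.66, adjusted p = 0.0977). Il6 was at 0, 0.0309 and 1.17 in WD + LPS, at 19.8, 0.0246 and 16.2 in WD control, and at 0, 0.0192 and 0 in chow controls. Its high values were in the libraries labelled WD control 1 and 3, and WD + LPS 3 stood between.

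Il10 was at 0.296, 0.324 and 10.6 in WD + LPS, at 13.2, 0.331 and 17.3 in WD control, and at 0.698, 0.764 and 0.567 in chow controls. Il12b was at 0, 0.0139 and 1.32 in WD + LPS, at 8.89, 0.0524 and 4.38 in WD control, and at 0.0375, 0 and 0.0184 in chow controls. These genes split the Western diet libraries in the same way as Ccl5. Il12a reached at most 0.505, in WD control 1, Il23a at most 0.0572, in WD control 3, and both were at 0 in WD + LPS 1 and 2 and in WD control 2.

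Il27 was at 3.75, 1.89 and 3.73 in WD + LPS, at 31.5, 3.26 and 37.0 in WD control, and at 2.19, 2.71 and 2.29 in chow controls. Ebi3 was at 8.51, 8.58 and 21.7 in WD + LPS, at 86.5, 17.2 and 111.3 in WD control, and at 15.5, 16.7 and 14.0 in chow controls. Both IL-27 chains were highest in WD control 1 and 3. Il15 was at 6.77, 7.17 and 19.4 in WD + LPS, at 65.8, 4.82 and 72.4 in WD control, and at 6.64, 4.20 and 5.57 in chow controls. Tnfsf10 was at 0.0830, 0.0123 and 0.982 in WD + LPS, at 3.72, 0.0314 and 3.75 in WD control, and at 0.0241, 0.0393 and 0.0242 in chow controls. The same 3 libraries held the 3 highest values of both genes. Of the lists of related genes, only Tnfsf9 was called by label in this table. It was at 1.42, 1.13 and 1.35 in WD + LPS and at 4.15, 5.82 and 4.33 in WD control. Chow controls stood at 3.30, 4.17 and 3.34. Tnfsf9 thus did not split the libraries as Ccl5 did. WD + LPS differed by -1.32 from WD control (adjusted p = 0.0178) and by -0.996 from chow control (adjusted p = 0.0371). Neither call held in all alternatives.

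Without the libraries labelled WD control 1 and 3 and WD + LPS 1 and 2, WD + LPS 3 and WD control 2 were left. Ccl5, which set these 4 libraries apart, was 6905 in WD + LPS 3 and 13.7 in WD control 2, and Il6, Il10, Il12b, Il15 and Tnfsf10 split the Western diet libraries much as Ccl5 did. The choice of libraries thus fixed the direction for such genes, and the values are given as a description with no test. Between WD + LPS 3 and WD control 2 the log2 difference was 3.12 for Il10, 1.81 for Il15, 1.14 for Il12b, 1.09 for Il6, 0.32 for Ebi3, 0.15 for Il27 and -0.30 for Tnf. With all libraries, by label, the changes were -1.37 for Il10, -1.49 for Il15, -1.52 for Il12b, -2.45 for Il6, -2.14 for Ebi3, -2.11 for Il27 and -2.85 for Tnf. Leaving out only WD control 2, the library of its label with low Ccl5, gave 7 of 7 genes higher in WD control than in chow control. It gave 6 of 7 lower in WD + LPS than in WD control. Of all 10331 genes, 5838 and 4086 were called in either direction, with median log2 changes of -0.50 and 0.35. Their split by direction is not given, so the directions of the cytokine genes cannot be set against it. These counts too depend on which library was left out. Whether libraries were exchanged or treated otherwise than labelled was not tested.

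**Figure D4:**
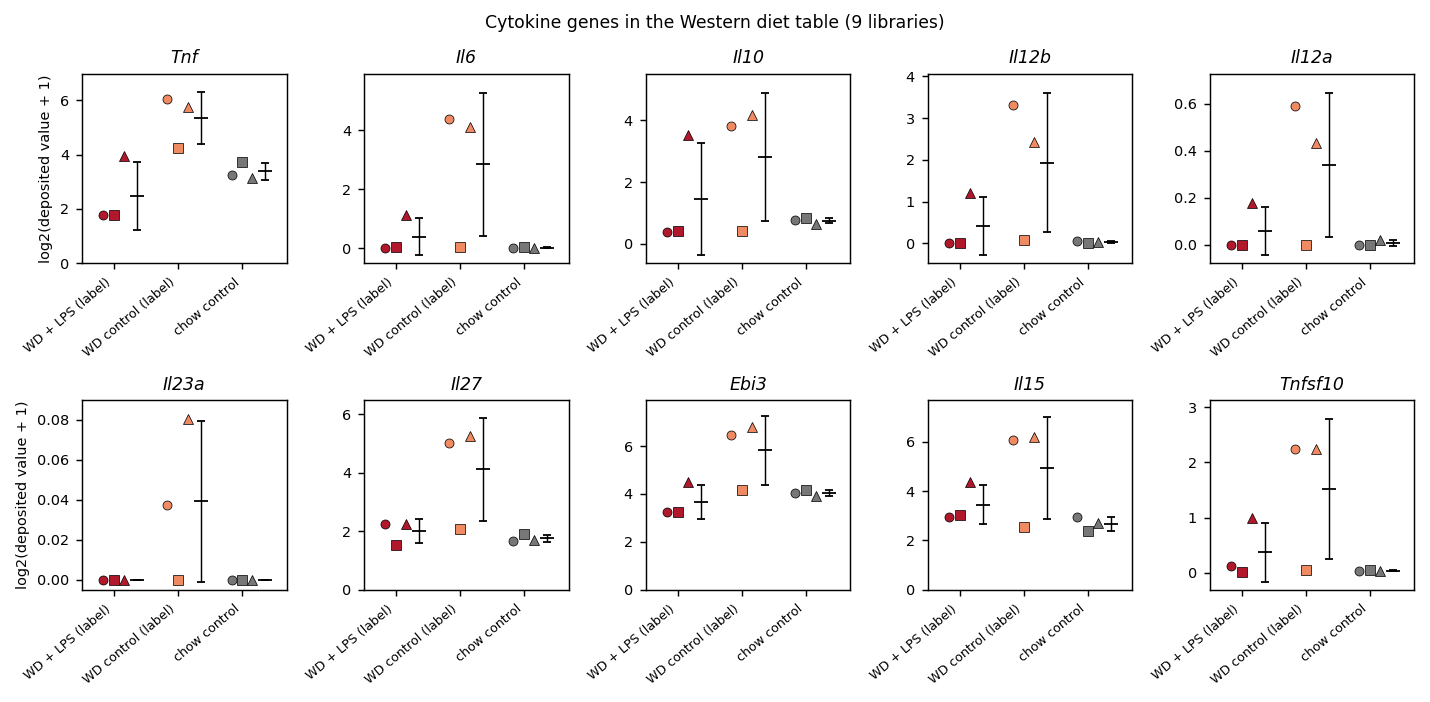
Values of the 10 cytokine genes in the 9 libraries of the Western diet table, by label, on a log2(deposited value + 1) axis whose range differs between panels. Circles, squares and triangles are replicates 1, 2 and 3 (4, 5 and 6 for chow control), and the black bar is the mean ± SD (n = 3). WD control 1 and 3 stand above WD control 2 in all 10 panels.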

How the data were processed

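The fatty acid and Western diet tables hold 12 and 9 libraries of mouse bone marrow-derived macrophages. Their values were used as a score of no named unit: the deposited values are decimal numbers whose unit is not given in the sources used here, and the step of quantification is likewise not given. Tools named per the submitters' processing notes are HISAT2 2.0.5, Trim Galore 0.4.1, FastQC 0.11.5 and CASAVA 1.8.2. The notes list the builds mm9 and mm10 but not what each was used for. Gene coordinates in the file equalled GRCm38 GENCODE M21 for 46773 of 50645 entries (fatty acid table) and 46772 of 50644 entries (Western diet table). Those of Ebi3 differed and are printed as deposited. Entries with displaced numbers were left out (36 and 35). Read depth is unknown, so no counting interval is given.

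The tables were fitted apart, because a shared normalization is not stated. Genes that reached 1 in 3 or more libraries entered, as log2(value + 1), into limma 3.58.1 with a mean-variance trend (R 4.3.3), with all libraries of a table in the fit. Benjamini-Hochberg adjustment of p-values ran over all 10476 or 10331 genes tested, and every adjusted p in the text is limma's. The log2(value + 1) scale understates changes of low values. The fit was checked on simulated data. Genes outside the fit had a two-sided exact permutation test of the F statistic. Folds are ratios of group means of deposited values. Levels were compared within a gene, not between genes.

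The cytokine genes, the lists of related genes and the tests were chosen with earlier results of these data known. All 10 genes are named in every library. Of each list, up to 3 called genes per comparison with the smallest adjusted p and a mean of at least 1 were to be named, and the remaining called receptor and IL-10-induced genes were named after their values were seen. Likeness used genes with a group mean of at least 5 and left out unnamed gene models. Promoter windows are from RefSeq (GRCm38.p6). Alternatives were no filter, a minimum of 5, a pseudocount of 0.1, only the libraries compared, median-ratio scaling, leaving out each library, the replicate number as a block, and leaving out 4 Western diet libraries. Figures used matplotlib 3.10.9 under Python 3.11.15.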

Additional observations from a re-analysis of the deposited data

Results flagged for a closer look

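The change with LPS went in opposite directions by label in the Western diet and chow macrophages for 7 of the 10 cytokine genes. Each of the 3 libraries labelled WD + LPS lay below the mean of the WD control libraries, and each of the 3 chow LPS libraries lay above the mean of its untreated group. The difference between these contrasts (Western diet minus chow, log2(value + 1) scale) was -6.4478 for Tnf, -6.2092 for Il6, -3.4343 for Il12b, -3.2491 for Il12a, -3.1884 for Il27, -3.2836 for Ebi3 and -1.5229 for Tnfsf10. The difference was not tested, and the contrasts come from separate tables. How many of all genes went in opposite directions in this way was not counted, so the 7 describe these genes only. The libraries labelled WD control 1 and 3 and WD + LPS 1 and 2 go against their labels for Ccl5, and in them the values of several of these genes split as Ccl5 did. Without them, with 1 library left in each Western diet group, the Western diet change was 1.09 for Il6, 1.14 for Il12b, 0.15 for Il27, 0.32 for Ebi3 and -0.30 for Tnf. Il12a and Tnfsf10 were not in that fit.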

How the results depend on the processing

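Of the counts in the fatty acid table, a minimum value of 5 gave 4 cytokine genes called with LPS against untreated cells (7 at a minimum of 1), 2 with fatty acid before LPS against LPS alone (5) and 1 with TAK242 against fatty acid (2), because Il6, Il12b or Il12a were no longer tested. With no filter the count was 1 for TAK242 against fatty acid and 0 for fatty acid with TAK242 against LPS alone (2). With only the libraries compared, the count for fatty acid with TAK242 against LPS alone was also 0; the cause was not tested. Leaving out 1 library at a time gave 1 to 1 for TAK242 against fatty acid, 0 to 6 for fatty acid with TAK242 against LPS alone, 0 to 6 for WD + LPS against WD control and 0 to 7 for WD control against chow control. The 6 and 7 in the Western diet table came without WD control 2, and the 6 in the fatty acid table without LPS replicate 3. Without the 4 libraries that go against their labels, only WD + LPS 3 and WD control 2 were left of the Western diet groups. No count of called genes is given for that fit, and its directions were fixed in part by that choice of libraries. Direction then turned for Il10 (3.12), Il12b (1.14), Il6 (1.09), Il15 (1.81), Ebi3 (0.32) and Il27 (0.15) in WD + LPS against WD control, for Tnf (0.55) and Ebi3 (0.47) in WD + LPS against chow control, and for Il10 (-0.33) and Il15 (-0.13) in WD control against chow control. Median-ratio scaling turned the uncalled changes of Il15 with LPS (0.011) and of Ebi3 with fatty acid before LPS against LPS alone (-0.053). Leaving out 1 library at a time also turned uncalled changes: Il15 with LPS ran from -0.73 to 0.23, Il10 and Ebi3 with fatty acid before LPS against LPS alone from -0.17 to 0.14 and from -0.14 to 0.10, and Il10 and Il12b in WD + LPS against chow control from -0.35 to 1.23 and from -0.017 to 0.59. Over all alternatives, 722 values of single cytokine genes kept their direction and side of the threshold, 36 lost and 30 gained a call, and 20 turned.

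Replicate numbers showed no clear pairing of the libraries in the fatty acid table. Same-numbered libraries there deviated together with correlations of -0.08 to 0.20 (1 of 18 over 0.1). Differently numbered ones ran from -0.19 to 0.15 (1 of 36 over 0.1). With 3 libraries per group these values cannot tell whether same-numbered libraries shared an animal or a culture. In the Western diet table the 3 same-numbered pairs had correlations of -0.67, 0.68 and 0.76, and differently numbered pairs ran from -0.79 to 0.74. With so few pairs, and 4 libraries that go against their labels, pairing could not be judged in that table. With the replicate number as a block the counts were 7 for LPS against untreated, 5 for fatty acid before LPS against LPS alone, 2 for TAK242 against fatty acid, 2 for fatty acid with TAK242 against LPS alone and 0 for WD + LPS against WD control, as without it. Over all genes the number called for TAK242 against fatty acid ran from 63 to 1110 over the alternatives (491 in the text's setting). For fatty acid with TAK242 against LPS alone it ran from 1 to 1784 (617). The ranges of the Western diet table leave out the fit without the 4 libraries that go against their labels. They were 8 to 5838 (24) for WD control against chow control and 0 to 4086 (99) for WD + LPS against WD control. For WD + LPS against chow control the range was 34 to 416 (144). Read depth is unknown, and Il23a and Il12b in untreated cells are too close to 0 for a ratio.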
